A study of Mus musculus with 6 samples.

Results

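The genes that write, erase and protect DNA methylation were examined in mouse embryonic stem cells with and without E-cadherin. The 10 genes were matched by Ensembl identifier to their symbols, and all 10 were found among the 55401 genes of the count table. They are Dnmt1 and Uhrf1, which maintain methylation, Dnmt3a, Dnmt3b and Dnmt3l, which establish it, Tet1, Tet2, Tet3 and Tdg, which remove it, and Zfp57, which guards it at imprinted regions. All libraries came from V6.5, a line of embryonic stem cells derived from hybrid mouse embryos. The 3 WT libraries held the unmodified line and the 3 knockout libraries held Cdh1-/- cells, in which the gene of E-cadherin was disrupted. E-cadherin is the adhesion protein that joins neighbouring epithelial and stem cells. The labels name neither the culture medium nor feeder cells, and do not say whether the Cdh1-/- libraries came from 1 clone or several, nor whether the replicates A, B and C were separate cultures. The p-values therefore measure the spread between these libraries, which may be technical.

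Methylation of cytosine in CG dinucleotides is copied after replication by Dnmt1, which Uhrf1 recruits to hemimethylated DNA. New methylation is laid down by Dnmt3a and Dnmt3b, and Dnmt3l, which has no catalytic activity of its own, stimulates them. The Tet enzymes oxidise 5-methylcytosine and Tdg excises the most oxidised bases, while Zfp57, a KRAB zinc finger protein, binds the methylated hexamer TGCCGC and recruits Trim28 to keep the methylation of imprinting control regions. Naive embryonic stem cells are known for low levels of the de novo enzymes, which increase when the cells move towards the epiblast state of the implanting embryo.

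In Cdh1-/- cells, Zfp57 rose and all 3 genes of de novo methylation fell, while the maintenance genes Dnmt1 and Uhrf1 did not pass the test. Zfp57 stood 2.79-fold higher in Cdh1-/- cells (95% interval 2.16 to 3.60). Dnmt3a, Dnmt3l and Dnmt3b stood at 0.672, 0.674 and 0.754 of their WT level. The fall of Dnmt3l was the least firm, since its groups overlapped and its call was lost in 3 fits that left out 1 library. Tet2 rose 1.49-fold, but this call depended on every library except Cdh1-/- replicate A. Of the 10 genes, 5 were called by the quasi-likelihood test of edgeR at an adjusted p of 0.05, 2 as higher and 3 as lower, against 13.3% of all 17325 tested genes (7.6% higher and 5.71% lower). The median log2 fold change was -0.01 over the 10 genes and -0.01 over all tested genes.

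Promoter sequences of the 5 called genes are shown because CG dinucleotides are the sites that the encoded proteins methylate, oxidise or bind once methylated, and because the 3 Dnmt3 genes moved in 1 direction. Each is a RefSeq window (GRCm38.p6) from 250 bases before to 50 bases after an annotated start, written 5′ to 3′ with CG in capitals. The window nearest to the gene start of the count table was taken, and an internal start of Dnmt3a was added, since embryonic stem cells are known to use a short Dnmt3a transcript that begins inside the gene.
Dnmt3a first start (chr12:3806730-3807029, plus strand): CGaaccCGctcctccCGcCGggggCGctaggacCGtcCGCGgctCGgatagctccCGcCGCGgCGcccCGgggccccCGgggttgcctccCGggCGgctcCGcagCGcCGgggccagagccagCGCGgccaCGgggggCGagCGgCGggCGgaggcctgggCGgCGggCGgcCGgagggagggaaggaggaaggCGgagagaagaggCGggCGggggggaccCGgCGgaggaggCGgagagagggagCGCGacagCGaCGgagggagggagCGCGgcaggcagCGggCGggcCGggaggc
Dnmt3a internal start (chr12:3891494-3891793, plus strand): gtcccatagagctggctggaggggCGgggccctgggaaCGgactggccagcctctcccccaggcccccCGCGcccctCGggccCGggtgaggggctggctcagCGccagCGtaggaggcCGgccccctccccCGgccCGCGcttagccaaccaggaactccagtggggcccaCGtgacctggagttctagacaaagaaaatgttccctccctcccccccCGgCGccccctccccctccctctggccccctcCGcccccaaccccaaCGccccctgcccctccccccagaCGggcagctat
Dnmt3b (chr2:153649199-153649498, plus strand): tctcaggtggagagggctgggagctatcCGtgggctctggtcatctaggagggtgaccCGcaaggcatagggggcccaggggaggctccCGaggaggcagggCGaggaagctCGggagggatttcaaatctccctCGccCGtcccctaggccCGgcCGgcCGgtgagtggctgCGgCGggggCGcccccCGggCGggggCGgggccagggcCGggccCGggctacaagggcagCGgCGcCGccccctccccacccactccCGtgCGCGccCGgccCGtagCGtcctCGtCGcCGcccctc
Dnmt3l (chr10:78042037-78042336, plus strand): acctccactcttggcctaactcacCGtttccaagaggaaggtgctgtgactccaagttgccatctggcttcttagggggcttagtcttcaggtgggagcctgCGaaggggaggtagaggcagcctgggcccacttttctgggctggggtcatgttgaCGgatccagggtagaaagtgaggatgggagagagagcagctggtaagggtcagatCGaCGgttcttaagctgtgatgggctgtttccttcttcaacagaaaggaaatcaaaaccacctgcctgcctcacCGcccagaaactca
Tet2 (chr3:133544341-133544640, minus strand): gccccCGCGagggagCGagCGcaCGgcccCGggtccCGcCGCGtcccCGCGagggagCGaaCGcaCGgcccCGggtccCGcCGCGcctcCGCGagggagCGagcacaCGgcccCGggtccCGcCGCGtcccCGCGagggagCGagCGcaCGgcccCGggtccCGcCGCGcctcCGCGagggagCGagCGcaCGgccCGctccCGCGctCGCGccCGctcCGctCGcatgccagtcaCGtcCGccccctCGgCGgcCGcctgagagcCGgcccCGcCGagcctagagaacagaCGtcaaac
Zfp57 (chr17:37000913-37001212, plus strand): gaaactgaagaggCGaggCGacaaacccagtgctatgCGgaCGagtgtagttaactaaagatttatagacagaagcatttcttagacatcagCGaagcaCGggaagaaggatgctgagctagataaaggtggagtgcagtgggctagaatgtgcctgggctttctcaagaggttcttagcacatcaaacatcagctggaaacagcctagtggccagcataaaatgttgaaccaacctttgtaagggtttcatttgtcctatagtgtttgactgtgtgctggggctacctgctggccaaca
The windows differed widely in CG content. The median of all 32851 RefSeq windows was 7 CG per 300 bases. The window of Tet2 held 57, more than 99.8% of all windows, and that of the first start of Dnmt3a held 46. Dnmt3b held 30 and the internal Dnmt3a start 18. Dnmt3l and Zfp57, which moved in opposite directions, held 6 each, so the called genes share neither a CG-rich nor a CG-poor promoter. Counts per gene do not show which start site was used.

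Short motifs were searched on both strands in the window nearest to the gene start of each of the 10 genes. The Zfp57 hexamer TGCCGC occurred in 2 of them, Dnmt3a and Tet3, and in 11.61% of all windows. The TCF/LEF sequence CTTTGAT, relevant because the study concerns beta-catenin, occurred in 0 of 10 and in 3.73% of all windows. The Esrrb sequence AAGGTCA occurred in 0 of 10 and in 4.72% of all windows, although another Zfp57 window (chr17:37002275-37002574) held it. The GC box GGGCGG, which contains a CG and can overlap itself and TGCCGC, occurred in 7 of 10 and in 35.66% of all windows, with 6 matches in the first Dnmt3a window and 0 in that of Zfp57. For Tet1 and Tet3 the nearest RefSeq start lay 11794 and 14714 bases from the gene start of the table, against at most 50 bases for the other genes. The counts depend on the choice of window. The nearest Dnmt1 window held 2 CG and 0 GC boxes. Another Dnmt1 window (chr9:20952574-20952873), whose start lay 7265 bases from the gene start, held 33 CG and 2 GC boxes. These matches describe letters in a window, not bound sites.

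The total count per library lay between 18020719 and 23381942. Cdh1, the disrupted gene, stood at 559 ± 19.1 CPM in WT libraries and 173 ± 9.05 CPM with the disruption (SD over 3 libraries), lower in each of the latter. CPM are counts scaled to library size, after scaling between libraries by the trimmed mean of M-values (TMM). Values of single libraries are given in the order of replicates A, B and C. Cdh1-/- replicate A stood apart from Cdh1-/- replicates B and C in several of the genes below, and results that rest on it are given with and without it. Pluripotency markers were high in every library, with a summed level of 10 markers of 5127 to 5534 CPM in WT and 6000 to 7409 CPM in Cdh1-/- cells, and 3 of the 10 were called higher. The 12 fibroblast markers, listed because feeder cells can accompany such cultures, summed to 58.6 to 79.9 CPM in WT and 56.8 to 71.1 CPM in Cdh1-/- cells, 1 called higher and 1 lower. Of the fibroblast markers, Col1a1, Col1a2, Col3a1, Thy1, Fbln2, Dcn, Lum and Postn were each highest in replicate A of both groups. The rest of the list differed. Pdgfra was lowest in replicate A of both groups. Col6a1 was highest in replicate A of WT but lowest in replicate A of Cdh1-/- cells. Col6a2 and Pdgfrb were highest in replicate A among the Cdh1-/- libraries but not in WT. Col1a2 had 4.59 CPM, 1.82 CPM and 1.10 CPM in WT and 3.32 CPM, 0.437 CPM and 0.605 CPM in Cdh1-/- cells. Col3a1 had 5.13 CPM in WT replicate A and 2.32 CPM in Cdh1-/- replicate A, against 0.0874 CPM and 0.101 CPM in Cdh1-/- replicates B and C, and Dcn, Lum and Postn were at or below 0.810 CPM in every library. Fbln2 had 13.6 to 22.1 CPM, Col1a1 was called lower, and Pdgfra, also a primitive endoderm marker, was the one called higher. The part of fibroblast RNA in the values of Cdh1-/- replicate A was not tested.

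**Figure D1:**
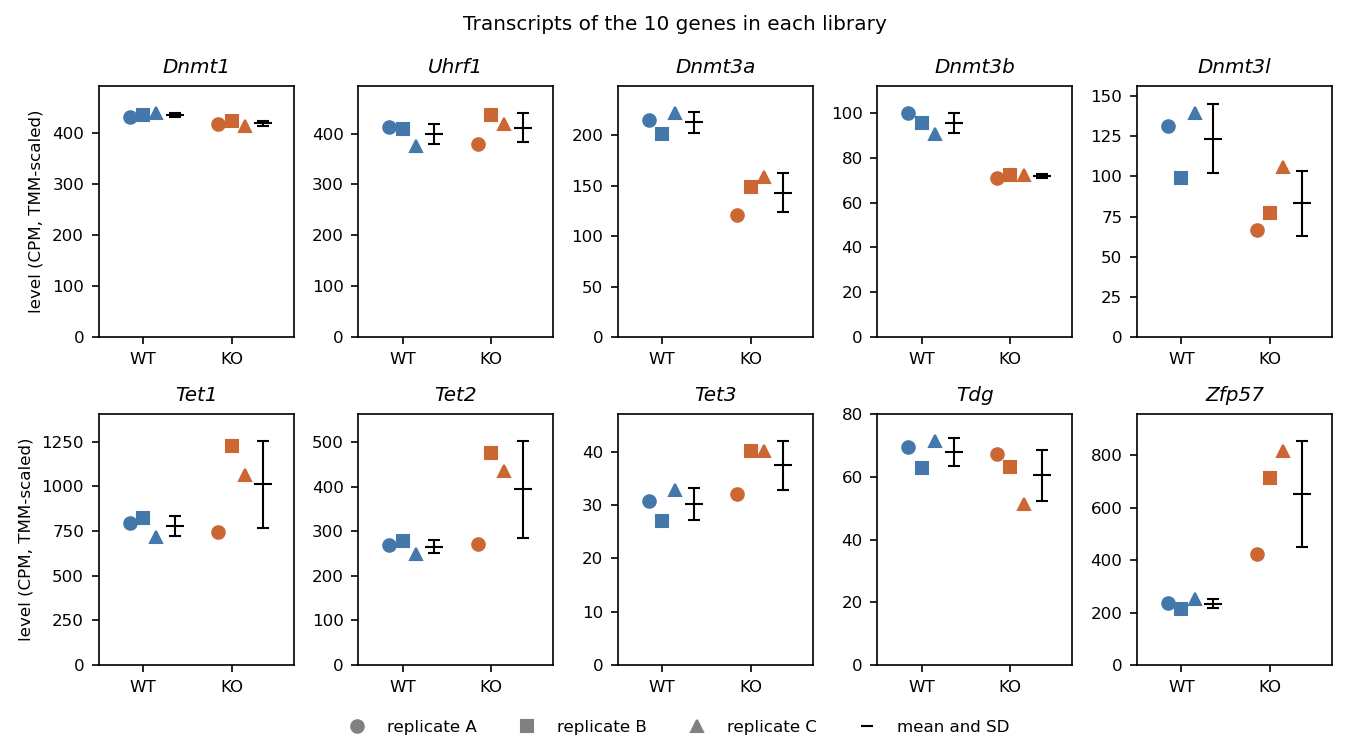
Level in CPM (y axis, from 0) of each of the 10 genes in the 3 WT libraries (blue) and the 3 Cdh1-/- libraries (KO, orange). Symbols mark replicates A, B and C, and black bars give mean and SD. Zfp57 lies at 425 to 818 CPM in Cdh1-/- cells against 215 to 251 CPM in WT, and Dnmt3a and Dnmt3b lie lower in every Cdh1-/- library.

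Zfp57 (ENSMUSG00000036036.15, plus strand of chromosome 17, 37001163 to 37010635 in GRCm38) stood in WT at 237 CPM (replicate A), 215 CPM (B) and 251 CPM (C). In Cdh1-/- replicates A, B and C it was counted at 425 CPM, 715 CPM and 818 CPM. The groups did not overlap, as was so for 4 of the 10 genes and 30.7% of all tested genes, with replicate A between WT and the other Cdh1-/- libraries. The log2 fold change was 1.48 ± 0.17 (SE, adjusted p 5.459e-05). It lay between 1.29 and 1.71 over 16 alternative settings, all of them called, with the highest value without Cdh1-/- replicate A.

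The de novo methyltransferase gene Dnmt3a (ENSMUSG00000020661.15, plus strand of chromosome 12, 3807030 to 3914443) was counted at 215 CPM, 201 CPM and 222 CPM in WT. The Cdh1-/- libraries had 121 CPM, 149 CPM and 158 CPM. Every Cdh1-/- library lay below every WT library, with replicate A the lowest. The log2 fold change was -0.57 ± 0.10 (SE, adjusted p 0.00147), and between -0.65 and -0.47 over 16 alternatives, all called. The smallest fall of these, -0.47, was that without Cdh1-/- replicate A (adjusted p 0.000990).

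Dnmt3b (ENSMUSG00000027478.15, plus strand of chromosome 2, 153649450 to 153687730), the second active de novo enzyme, had 99.9 CPM, 95.4 CPM and 90.7 CPM in WT and 70.9 CPM, 72.4 CPM and 72.4 CPM in Cdh1-/- cells. The groups did not overlap, and the Cdh1-/- libraries spread less (SD 0.839) than the WT libraries (SD 4.60). Its log2 fold change was -0.41 ± 0.09 (SE, adjusted p 0.00511), called in all 16 alternatives. In this gene Cdh1-/- replicate A did not stand apart.

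Dnmt3l (ENSMUSG00000000730.13, plus strand of chromosome 10, 78042287 to 78063622), the cofactor without catalytic activity, was the most variable of the 3. It had 132 CPM, 99.2 CPM and 139 CPM in WT and 66.8 CPM, 77.1 CPM and 106 CPM in Cdh1-/- cells. The groups overlapped, since Cdh1-/- replicate C exceeded WT replicate B. Its log2 fold change, -0.57 ± 0.15 (SE, adjusted p 0.0232), was no longer called without WT replicate A (adjusted p 0.109), without WT replicate C (adjusted p 0.128) or without Cdh1-/- replicate B (adjusted p 0.123). Without Cdh1-/- replicate A the fall was smaller, at -0.43, and still called (adjusted p 0.0351).

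The 3 Dnmt3 genes had similar mean proportions in both groups while their sum was lower in Cdh1-/- cells. Per kilobase of exon, in reads per kilobase scaled to library size (RPKM), the summed Dnmt3 level was 94.0, 79.5 and 95.6 in WT and 53.6, 60.6 and 72.3 in Cdh1-/- cells. Dnmt3a made up 22.8% of that sum in Cdh1-/- replicate A, 24.7% in B and 22.1% in C, against 23.0% to 25.5% in WT. Dnmt3b made up 30.6%, 27.6% and 23.1% in Cdh1-/- replicates A, B and C, against 21.9% to 27.7% in WT. Its share in replicate A thus lay above the WT range. By this measure Dnmt3l was the largest part in every library, at 46.7% to 54.8%. The shares use the length of all annotated exons, 9913 bases for Dnmt3a and 2670 bases for Dnmt3l. The part of Dnmt3a is understated where its short transcript is used. In CPM, without division by length, Dnmt3a (213 in WT, 143 in Cdh1-/- cells) stood above Dnmt3l (123 and 83.2). These shares are a description without a test.

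Maintenance genes showed small differences. Dnmt1 (ENSMUSG00000004099.16, minus strand of chromosome 9, 20907209 to 20959888) had 432 CPM, 435 CPM and 440 CPM in WT and 419 CPM, 424 CPM and 415 CPM in Cdh1-/- cells. Although these groups did not overlap, the difference was small, with a log2 fold change of -0.05 (95% interval -0.22 to 0.11, adjusted p 0.706). Uhrf1 (ENSMUSG00000001228.14, plus strand of chromosome 17, 56303321 to 56323486), which brings Dnmt1 to replicated DNA, had 412 CPM, 409 CPM and 376 CPM in WT. Its Cdh1-/- levels of 380 CPM, 436 CPM and 419 CPM overlapped those of WT. The log2 fold change was 0.04 (95% interval -0.14 to 0.22, adjusted p 0.798). Both intervals leave out changes of the size fitted for Dnmt3a. A copy, Gm5648, matches up to 1590 bases of Uhrf1 at 95% identity or more and had 18 to 32 counts per library, against 6867 to 9981 for Uhrf1.

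Among the genes of the Tet family, which oxidise methylated cytosine, Tet1 was the most abundant and Tet2 the only one called. Tet2 (ENSMUSG00000040943.12, minus strand of chromosome 3, 133463679 to 133544390) had 269 CPM, 278 CPM and 249 CPM in WT and 271 CPM, 476 CPM and 436 CPM in Cdh1-/- cells. Cdh1-/- replicate A lay inside the WT range and the other Cdh1-/- libraries far above it. The log2 fold change was 0.57 ± 0.15 (SE, adjusted p 0.0216). Without Cdh1-/- replicate A it was 0.78. In the 5 fits that each left out another library the adjusted p lay above the threshold, at 0.0796, 0.0783 and 0.0882 with WT replicate A, B or C left out and at 0.123 and 0.0956 with Cdh1-/- replicate B or C left out.

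Tet1 (ENSMUSG00000047146.17, minus strand of chromosome 10, 62804570 to 62899118), the main Tet enzyme of embryonic stem cells, had 794 CPM, 823 CPM and 716 CPM in WT. In the knockout it had 742 CPM, 1224 CPM and 1064 CPM, again with replicate A inside the WT range. Its log2 fold change of 0.38 (95% interval 0.08 to 0.67) did not pass the test (adjusted p 0.0894). Without Cdh1-/- replicate A it was 0.56 and passed (adjusted p 0.000136).

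Tet3 (ENSMUSG00000034832.15, minus strand of chromosome 6, 83362373 to 83456392), known for its role in the zygote, had 30.8 CPM, 27.1 CPM and 32.9 CPM in WT and 32.1 CPM, 40.1 CPM and 40.2 CPM in Cdh1-/- cells. The log2 fold change of 0.31 did not pass (adjusted p 0.122), and without Cdh1-/- replicate A it was 0.41 (adjusted p 0.0240). Here too Cdh1-/- replicate A lay within the WT range. All 3 Tet genes thus had Cdh1-/- replicate A among the WT libraries and Cdh1-/- replicates B and C above them.

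Summed over the 3 genes, the Tet level was 87.1, 89.8 and 79.7 RPKM in WT and 83.8, 140 and 125 RPKM in Cdh1-/- cells. The ratio of the Tet sum to the Dnmt3 sum was 0.926, 1.13 and 0.834 in the WT libraries. In Cdh1-/- replicates A, B and C the ratio was 1.56, 2.31 and 1.73, above WT in each library. In replicate A the difference in this ratio lay in the Dnmt3 sum, since the Tet sum was within the WT range. The ratio describes transcripts, not enzyme amounts, and was not tested. Both sums use the length of all annotated exons, so the size of the ratio depends on those lengths.

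Tdg (ENSMUSG00000034674.18, plus strand of chromosome 10, 82629828 to 82650799), the glycosylase that removes formyl- and carboxylcytosine, had 69.5 CPM, 62.9 CPM and 71.5 CPM in WT and 67.2 CPM, 63.0 CPM and 51.5 CPM in Cdh1-/- cells. The groups overlapped, and the log2 fold change of -0.17 (95% interval -0.40 to 0.07) did not pass (adjusted p 0.361). Its counts are less certain than those of the other genes. Of its exon bases, 10.39% lie under Glt8d2 on the opposite strand, a gene with 6 to 20 counts per library, and the strand setting used is not given in the sources used here. The copies Gm9855, Gm5597 and Tdg-ps match stretches of Tdg of 1194, 1193 and 2968 bases at 95% identity or more. Gm9855 had 270 to 371 counts, and Tdg-ps 4 to 14, against 1020 to 1545 for Tdg.

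**Figure D2:**
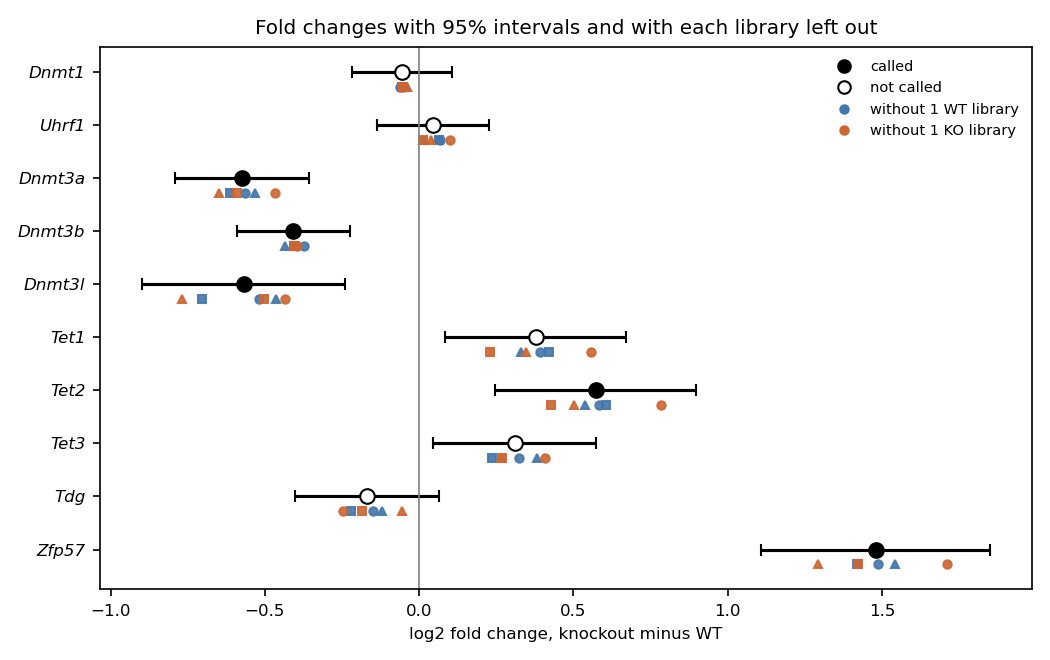
Log2 fold change, knockout minus WT (x axis), for each gene, with its 95% interval as a bar. Filled black points were called at an adjusted p of 0.05 and open points were not; small symbols give the value with 1 WT library (blue) or 1 Cdh1-/- library (orange) left out, shaped by replicate as circles (A), squares (B) and triangles (C). Zfp57 stands at 1.48, the 3 Dnmt3 genes lie between -0.57 and -0.41, and the values without Cdh1-/- replicate A are the highest of each Tet gene.

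None of the 10 genes lies on chromosomes 1 or 14, whose genes were shifted as a whole in Cdh1-/- cells (medians of -0.33 and 0.53 on the log2 scale), or on chromosome Y, whose 6 tested genes had a median of -2.56. The chromosomes that hold the 10 genes had medians within 0.05 of 0. With the genes of chromosomes 1, 14 and Y left out of scaling and testing, 5 of the 10 genes were called. Markers of other cell states also moved with genotype. All 7 primitive endoderm markers were called higher, with a summed level of 32.4 to 54.3 CPM in WT and 90.0 to 170.1 CPM in Cdh1-/- cells, lowest there in replicate A. Of the 5 primed epiblast markers, 4 were tested and 2 called lower, with sums of 62.3 to 72.5 CPM in WT and 22.2 to 28.6 CPM in Cdh1-/- cells. The 5 neural markers summed to 152.7 to 189.8 CPM in WT and 107 to 139 CPM in Cdh1-/- cells, 3 of them called lower, and of 4 germ cell markers 1 was called lower (115 to 130.5 CPM in WT, 93.8 to 115 CPM in Cdh1-/- cells). The part of these shifts in the results for the methylation genes was not tested. In bulk RNA, fewer cells of a kind and less RNA per cell cannot be told apart.

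Levels between genes were compared per kilobase of exon. In WT, Uhrf1 was highest at 109 ± 5.53 RPKM, followed by Zfp57 at 69.2 ± 5.42 RPKM and Dnmt1 at 69.1 ± 0.663 RPKM, whose ranges overlapped. Tet1 at 54.1 ± 3.87 RPKM and Dnmt3l at 46.2 ± 7.99 RPKM overlapped as well. Below them came Tet2 at 28.8 ± 1.57 RPKM, then Dnmt3b at 22.0 ± 1.06 RPKM and Dnmt3a at 21.4 ± 1.07 RPKM, which overlapped, then Tdg at 19.2 ± 1.28 RPKM. Tet3 was lowest at 2.58 ± 0.252 RPKM.

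In the knockout the order of the means changed throughout, and only Tet3 kept its place. Zfp57 became the highest at 193 ± 60.3 RPKM, above Uhrf1 at 112 ± 7.90 RPKM. Tet1 at 70.3 ± 17.1 RPKM overlapped Dnmt1 at 66.5 ± 0.780 RPKM, and Tet2 at 42.8 ± 11.8 RPKM overlapped Dnmt3l at 31.2 ± 7.54 RPKM. Tdg at 17.1 ± 2.30 RPKM overlapped Dnmt3b at 16.6 ± 0.194 RPKM, and Dnmt3a at 14.4 ± 1.95 RPKM lay below both means. The exon length sums all annotated exons, which for Dnmt3a is 9913 bases, so the level of a gene expressed as a short transcript is understated.

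**Figure D3:**
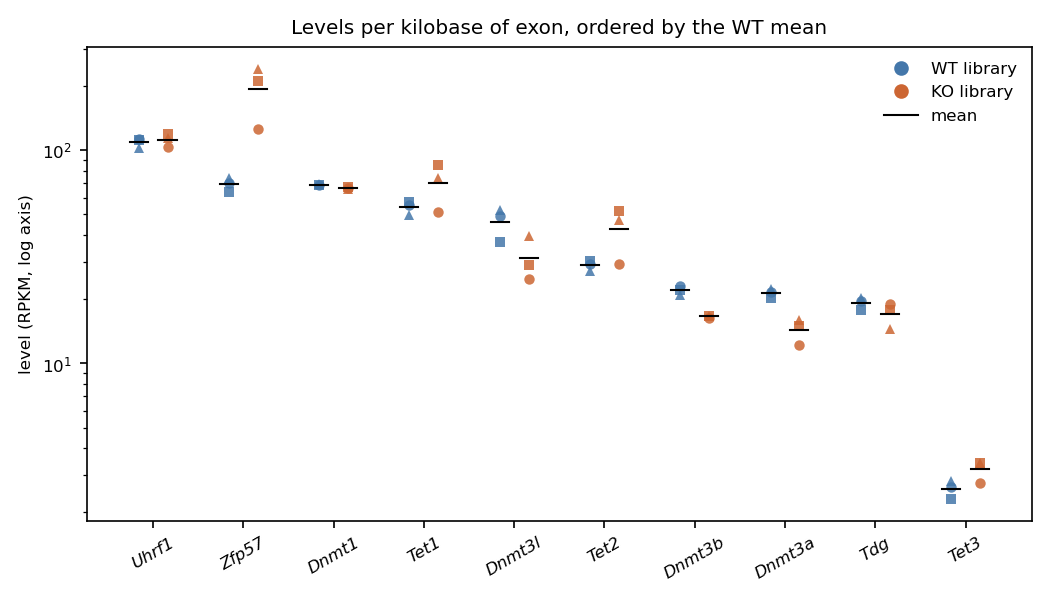
Level in RPKM on a log axis for each gene, ordered by the WT mean, with 1 symbol per library (WT blue, knockout orange; circles, squares and triangles are replicates A, B and C) and a black line at each mean. Zfp57 moves from 69.2 RPKM to 193 RPKM, past Uhrf1, and Tet3 stays lowest in both groups.

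The genes whose profiles over the 6 libraries were most like those of the leading genes were taken by the lowest root mean square distance between centred log2 CPM, among 12847 genes. For Zfp57 these were Nynrin, Xaf1 and Tsc22d1, at distances of 0.06, 0.13 and 0.14. Nynrin had 46.3 to 61.0 CPM in WT and 94.7 CPM, 161 CPM and 192 CPM in Cdh1-/- replicates A, B and C, lowest of the Cdh1-/- libraries in replicate A as for Zfp57. Nynrin and Tsc22d1 lie on chromosome 14, and Xaf1 on chromosome 11. For Dnmt3a, the called gene with the lowest adjusted p among those that fell, the nearest were Kcnt2, Lrmp and Ncl, at 0.04, 0.04 and 0.05. Ncl, the gene of nucleolin, had 3431 to 3776 CPM in WT and 2046 CPM, 2519 CPM and 2450 CPM in Cdh1-/- cells, and it lies with Kcnt2 on chromosome 1.

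Partners of the 10 genes were examined in lists. The lists here and below were chosen with earlier results of these data known, so their shares of called genes are descriptions only. In the lists of maintenance partners, imprint protection, readers, methyl donors and base excision, between 6.67% and 15.8% of the tested genes were called, against 13.3% of all genes. Of 14 partners of maintenance methylation, which include Hells, Usp7, Uhrf2 and Pcna, 1 was called. In this list 2 were called without Cdh1-/- replicate A. The same number was called with upper quartile factors, library totals, either other filter, DESeq2, the replicate letter as a block or halved counts. The gene called in the main fit was Cdca7l, a relative of the Hells activator Cdca7, which fell, with 38.0 ± 6.38 CPM in WT against 23.4 ± 0.313 CPM in Cdh1-/- cells (log2 fold change -0.69, adjusted p 0.00204). Of 15 genes of imprint protection and KRAB zinc finger repression, only Ctcfl was called, at 2.36 ± 0.675 CPM in WT and 0.846 ± 0.296 CPM in Cdh1-/- cells. That call was lost without WT replicate A or C or Cdh1-/- replicate B or C, when 0 genes of the list passed (adjusted p of Ctcfl between 0.0700 and 0.139). The list held 2 called genes without Cdh1-/- replicate A. It also held 2 with upper quartile factors, library totals, either other filter, DESeq2, the replicate letter as a block or halved counts. Trim28, the corepressor that Zfp57 recruits, was not called (-0.12 on the log2 scale, adjusted p 0.575), nor were Setdb1 (0.13, adjusted p 0.337) and Zfp445 (0.04, adjusted p 0.805), the second zinc finger protein known to bind imprinting control regions.

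Of 19 tested genes of base excision and TET partners, 2 were called higher and 1 lower. Hmces, a sensor of abasic sites, rose, with 63.3 ± 3.63 CPM in WT against 92.8 ± 7.70 CPM in Cdh1-/- cells (log2 fold change 0.55, adjusted p 0.00123). The other two lie on the shifted chromosomes. Parp1 of chromosome 1 had a log2 fold change of -0.41 and Apex1 of chromosome 14, the abasic endonuclease, one of 0.68, beside chromosome medians of -0.33 and 0.53. Without Cdh1-/- replicate A or C 5 genes of this list were called, and 5 also with DESeq2 or with the replicate letter as a block. With no filter on low counts 7 were called, and without chromosomes 1, 14 and Y 1 was. Of 9 methyl-CpG readers only Mbd6 was called, lower (log2 fold change -0.43, adjusted p 0.0249). The number was 0 without WT replicate A or B or Cdh1-/- replicate B or C, and 2 without Cdh1-/- replicate A or with DESeq2.

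The supply of methyl groups and of TET cofactors gave mixed calls. Of 15 genes of the methyl donor cycle, Mthfd1, a folate enzyme, was called higher (log2 fold change 0.33, adjusted p 0.0167), a call lost without WT replicate A or B or Cdh1-/- replicate C (adjusted p 0.0928, 0.0513 and 0.0833). Mat2a, which makes S-adenosylmethionine, stood at -0.02 on the log2 scale (adjusted p 0.947). Of 15 genes of oxoglutarate metabolism, Glud1 of chromosome 14 and Idh3b were called higher (0.79 and 0.35), and Psat1 and D2hgdh of chromosome 1 lower (-0.47 and -0.54), together 26.7% of the list against 13.3% of all tested genes. Glud1 and D2hgdh lie on the shifted chromosomes, whose medians were 0.53 (chromosome 14) and -0.33 (chromosome 1). With chromosomes 1, 14 and Y left out, 2 genes of the list were called. The list also held 2 called genes without WT replicate A or B or Cdh1-/- replicate B, and 6 without Cdh1-/- replicate A. D2hgdh lost its call with any library but Cdh1-/- replicate A left out (adjusted p between 0.0748 and 0.148) and with no filter on low counts (adjusted p 0.0653), and Idh3b without WT replicate A or B or Cdh1-/- replicate B (adjusted p 0.104, 0.0631 and 0.0525).

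Of 12 regulators known to bear on methylation in stem cells, 3 were called (25%, against 13.3% of all tested genes). Dppa3, which restrains Uhrf1, fell, with 8.99 ± 1.76 CPM in WT against 3.36 ± 1.08 CPM in Cdh1-/- cells (log2 fold change -1.43, adjusted p 0.00178). Setd2, which writes the H3K36 trimethylation that Dnmt3b reads, rose, with 177 ± 12.6 CPM in WT against 286 ± 29.4 CPM in Cdh1-/- cells (log2 fold change 0.69, adjusted p 0.000213). Lin28a, an RNA-binding protein reported to recruit Tet1, fell, with 328 ± 21.6 CPM in WT against 190 ± 4.24 CPM in Cdh1-/- cells (log2 fold change -0.79, adjusted p 2.411e-05). Prdm14, a known repressor of Dnmt3b and Dnmt3l, was not called (0.26 on the log2 scale, adjusted p 0.293). Without Cdh1-/- replicate A 7 of the 12 were called, and with no filter on low counts 6.

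Transcripts that DNA methylation is known to silence or mark were counted as well. Of 19 tested germline genes with promoters known to be methylated, 6 were called lower and 1 higher (36.8% called, against 13.3% of all tested genes), with a median log2 fold change of -0.44. The median lay between -0.53 and -0.31 with each library left out, and 4 genes were called without WT replicate A or Cdh1-/- replicate B. With chromosomes 1, 14 and Y left out, 5 were called. Hormad1, a meiotic chromosome protein, fell, with 25.4 ± 2.45 CPM in WT against 13.3 ± 2.30 CPM in Cdh1-/- cells (log2 fold change -0.93, adjusted p 0.000782), and Tuba3a fell, with 12.1 ± 0.776 CPM in WT against 5.53 ± 1.18 CPM in Cdh1-/- cells. Rpl10l, a ribosomal protein gene of the testis, was called at -0.71 on the log2 scale (adjusted p 0.00503), and Mael, a piRNA pathway gene of chromosome 1, at -0.76 (adjusted p 0.00244). The counts of Tuba3a and Rpl10l are less certain, since Tuba3b matches 1447 bases of the first and Gm14460 639 bases of the second at 95% identity or more. Tuba3b had 0 to 24 counts per library and Gm14460 had 0 in every library.

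Of 27 tested transcripts of imprinted regions, where Zfp57 acts, 10 were called lower and 4 higher (51.9% called, against 13.3% of all tested genes). The median log2 fold change was -0.26, also with 2 genes at the detection floor, Rtl1 and Mirg, set to their bounds. Setting the bounds could not move the median, since both genes stayed below it. The median lay between -0.40 without Cdh1-/- replicate C and -0.15 without Cdh1-/- replicate B, and 9 were called without WT replicate A or B. The paternally expressed zinc finger gene Peg3 fell, with 102 ± 22.9 CPM in WT against 43.9 ± 3.73 CPM in Cdh1-/- cells (log2 fold change -1.22, adjusted p 4.51e-05). The noncoding RNAs Meg3, Rian and Mirg of chromosome 12 fell from 187 CPM, 194 CPM and 6.67 CPM to 0.244 CPM, 0.702 CPM and 0.0964 CPM, levels near the floor of 6 counts per library (0.262 to 0.332 CPM). Rtl1, also called lower, lies on the same chromosome, and calls within 1 imprinted region are not separate observations. Counts carry no measurement of methylation at these loci.

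**Figure D4:**
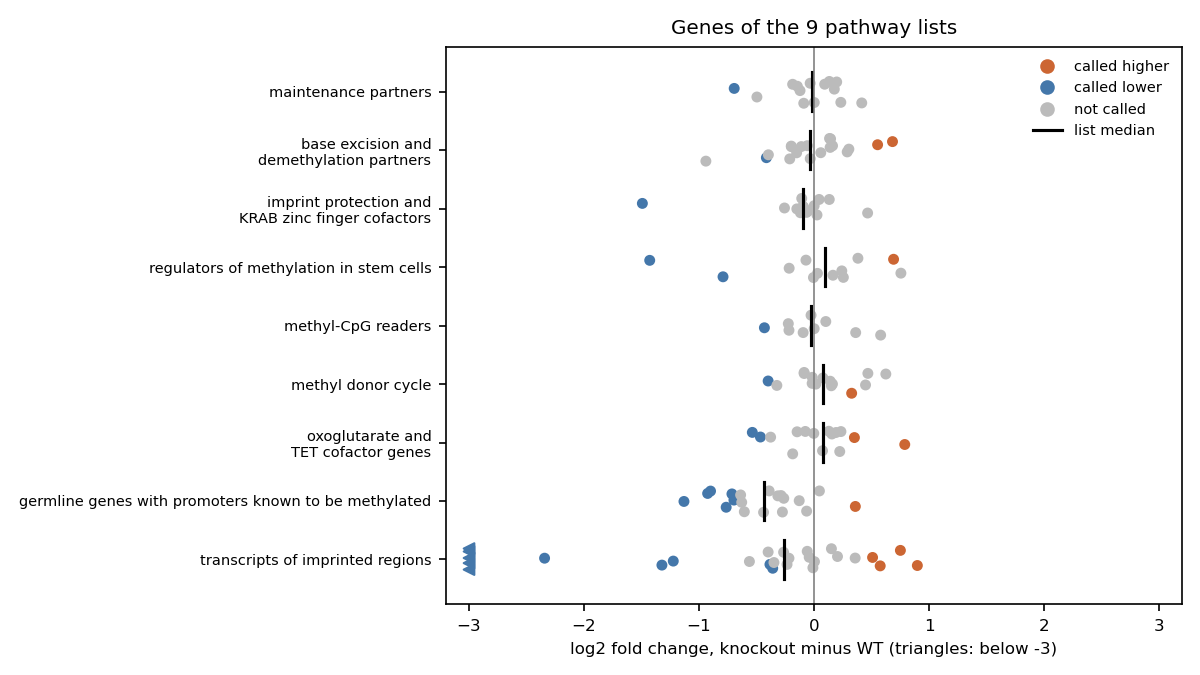
Log2 fold change, knockout minus WT (x axis), of each tested gene in 9 lists of related genes, with 1 point per gene (orange called higher, blue called lower, grey not called) and a black line at each list's median. Triangles at the left edge stand for genes below -3. The medians of the germline and imprinted lists lie at -0.44 and -0.26, and those of the other lists lie between -0.09 and 0.10.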

How the data were processed

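Total RNA was isolated with TRIzol and made into libraries with a directional kit, per the labels' protocols. The authors deposited raw counts per gene for 6 libraries, with the exon length of each gene as another column. Per the submitters' processing notes, cutadapt 2.10, STAR 2.7.5b, featureCounts 2.0.1 and the build GRCm38 were used; strand and read pair settings are not given in the sources used here. Between 78.1% and 83.1% of counts from 1 to 10 were even, as can arise when both mates are counted, so a floor of 6 counts was used; floors cover counting error only. Symbols were found for 55141 of 55401 identifiers.

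The analysis used edgeR 4.0.16 in R 4.3.3. Of 32417 genes with a count, filterByExpr (minimum count 10, minimum total 15) kept 17325. After TMM scaling a quasi-likelihood model with genotype as its only term was fitted to all libraries, with Benjamini-Hochberg adjustment over all tested genes, and genes were called at an adjusted p of 0.05. Standard errors and intervals were derived from the F statistic. The procedure was tested on simulated data. The members and lists were chosen with earlier results of these data known. Lists are described by counts and medians beside all tested genes. Named genes are Cdh1, the 10 genes, up to 4 called genes per list with the lowest adjusted p, and the 3 nearest profiles, for which log2 CPM used a prior count of 2 and a mean of at least 50 counts. Trim28, Setdb1, Zfp445, Mat2a and Prdm14 are outside that rule and were chosen after their values were seen, as were the promoter motifs. In the lists, 1 called gene that falls under that rule is left out of the text. Alternatives were other scaling factors, other filters, DESeq2 1.42.0, limma-voom (limma 3.58.1), the replicate letter as a block, each library left out, chromosomes 1, 14 and Y left out, counts divided by 2 and a threshold of 0.01.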

Additional observations from a re-analysis of the deposited data

How the results depend on the processing

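Of the 10 genes, the calls of Zfp57, Dnmt3a and Dnmt3b held in all 16 alternatives, and no gene changed direction in any of them. Dnmt3l lost its call in 3 alternatives and Tet2 in 5, all of them fits without 1 library; Tet1 gained one in 3 and Tet3 in 1. The cause was not tested. With each library left out in turn, 3 to 7 of the 10 genes were called, 1 to 4 of them higher and 2 to 3 lower, with 3 called when WT replicate A or C or Cdh1-/- replicate B was left out, and 7 without Cdh1-/- replicate A. A threshold of 0.01 left 3 of the 10 genes, 1 of them higher. Over all genes 2307 were called, between 1374 (without WT replicate A) and 2784 with 1 library left out, 1470 of them without WT replicate B. The number was 1535 without chromosomes 1, 14 and Y, where fewer genes were tested, and 1242 at the threshold of 0.01. The genes of all 9 lists gave 36 calls, between 23 (without WT replicate A) and 48 with 1 library left out.

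The replicate letters are not known to pair the libraries. Deviations from the group means correlated at 0.19 for letter A, -0.10 for B and 0.38 for C, and WT replicate B correlated best with Cdh1-/- replicate A. With the replicate block 6 of the 10 genes were called, with Tet1 added (adjusted p 0.0478), 2686 of all genes, and 46 genes of the lists. The lowest value of the 10 genes in any library was 536 counts.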
